A study of Mus musculus with 141 samples.

Results

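Livers with high and low expression of sterol synthesis genes were compared in mice of the Collaborative Cross (CC), whose recombinant inbred strains descend from common founders. The members were chosen by a score read from the data. For each of the 47 livers, log2(CPM + 1) was averaged over Sqle, which makes squalene epoxide, and Idi1, which interconverts the isoprenoid building blocks. CPM here is the expected count scaled to the library's total without Rn45s, the ribosomal RNA precursor. The 16 livers with the highest score and the 16 with the lowest formed the high-score and low-score sets, 32 livers of 141 libraries in all, and the other 15 were between them. The rule also named Hmgcs1, which was not analysed here, so that 2 of its 3 genes gave the score. Every mouse was an adult male of 8 to 12 weeks with its own strain, kept on an NTP wafer diet and a 12-h light-dark cycle, and had been placed in chambers with clear air for 6 hours a day over 2 weeks. No treatment or allele separated the sets in the labels, each strain was represented by 1 mouse, and strain and individual cannot be told apart. Lung and kidney of the same 32 mice were libraries that the rule did not use.

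The score ran from 7.58 to 8.51 in the high-score livers (median 7.82) and from 4.92 to 7.04 in the low-score livers (median 6.58). Sqle was at 90.3 to 197 CPM in the high-score set (median 126) and at 12.0 to 105 CPM in the low-score set (median 46.1). Idi1 was at 324 to 670 CPM (median 421) against 69.7 to 242 CPM (median 165). These values chose the sets and are a description. The lines between the sets were narrow. The lowest high-score liver, CC002, had a score of 7.58 and the liver just outside, CC035, 7.56, while the highest low-score liver, CC016, was at 7.04 and its neighbour CC025 at 7.05. The liver of CC029 stood below all others at 4.92.

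Cholesterol is built from acetyl-CoA through the mevalonate pathway, which makes isoprenoid units, joins them into squalene and closes squalene to lanosterol, after which demethylation, reduction and isomerization give cholesterol. The liver is a major site of this synthesis. When membrane sterol falls, SCAP is freed from retention by INSIG proteins and escorts the transcription factor SREBP2, the product of Srebf2, to its activation. SREBP2 then raises the genes of the pathway together with the LDL receptor. SREBP2 acts at promoters beside other factors, among them NF-Y, which binds CCAAT boxes.

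Promoters of 4 sterol synthesis genes and the stretch that Mmab shares with the neighbouring Mvk are shown. They are examples, from genes higher in the high-score livers, whose windows hold CCAAT or ATTGG. They are the bases before the start site, from RefSeq on GRCm38.p6, 5′ to 3′ on the strand of the gene, with each CCAAT, or ATTGG on the other strand, in capitals. Msmo1 is at chr8:64733579-64733828 on the minus strand, Cyp51 at chr5:4104698-4104947 on the minus strand, Nsdhl at chrX:72918271-72918520 on the plus strand and Lss at chr10:76531355-76531604 on the plus strand. The stretch at chr5:114444028-114444268 lies between the opposed start sites of Mmab and Mvk and is given on the strand of Mvk.
Msmo1: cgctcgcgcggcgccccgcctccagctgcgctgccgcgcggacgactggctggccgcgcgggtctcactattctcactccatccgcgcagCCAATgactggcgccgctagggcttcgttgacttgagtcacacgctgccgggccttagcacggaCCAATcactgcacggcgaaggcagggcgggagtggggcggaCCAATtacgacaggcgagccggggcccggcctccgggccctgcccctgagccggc
Cyp51: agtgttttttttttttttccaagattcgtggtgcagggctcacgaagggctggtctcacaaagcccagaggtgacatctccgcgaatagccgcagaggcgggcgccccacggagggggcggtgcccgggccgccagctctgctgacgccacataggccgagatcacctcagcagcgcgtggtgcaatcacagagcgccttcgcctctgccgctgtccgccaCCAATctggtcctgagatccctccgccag
Nsdhl: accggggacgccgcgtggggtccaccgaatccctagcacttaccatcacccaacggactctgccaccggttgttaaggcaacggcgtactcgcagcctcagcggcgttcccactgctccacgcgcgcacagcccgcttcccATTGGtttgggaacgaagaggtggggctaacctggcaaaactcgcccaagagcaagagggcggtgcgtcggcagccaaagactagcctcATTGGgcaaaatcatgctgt
Lss: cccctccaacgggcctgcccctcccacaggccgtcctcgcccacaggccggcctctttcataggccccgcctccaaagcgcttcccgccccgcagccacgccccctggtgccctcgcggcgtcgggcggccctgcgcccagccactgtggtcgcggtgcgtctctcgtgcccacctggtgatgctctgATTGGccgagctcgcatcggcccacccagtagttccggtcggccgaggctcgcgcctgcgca
Mmab to Mvk: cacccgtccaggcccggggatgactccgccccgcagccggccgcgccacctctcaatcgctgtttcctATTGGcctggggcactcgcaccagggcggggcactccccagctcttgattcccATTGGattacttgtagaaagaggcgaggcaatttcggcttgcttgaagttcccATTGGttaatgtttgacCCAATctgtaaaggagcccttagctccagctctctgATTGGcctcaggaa
In windows of 300 bases, from 250 before the start site to 50 after it, 15 of the 19 sterol synthesis genes of a list had a RefSeq promoter. CCAAT on either strand was found in 13 of these 15 genes (86.7%). It was in 3213 of 7757 genes tested in liver that had a promoter (41.4%) and in 41.1% of all 27025 genes with one. GGGCGG, the GC box, on either strand was found in 14 of the 15 genes (93.3%) and in 65.4% of the tested genes. The sterol element TCACNCCAC was found on neither strand of the 15 genes, and in 1.44% of all 27025 genes with a promoter. The looser CACNNCAC, which contains part of it and was searched after TCACNCCAC gave no match, was found in 4 of the 15 genes (26.7%) and in 17.5% of the tested genes. Among all genes past the threshold in liver, CCAAT or ATTGG was in 8 of the 10 higher genes with a promoter. It was in 1 of the 5 lower genes with a promoter. Acat2 and Nr2f6 were the higher genes without it. The Mmab window shared its 5 CCAAT or ATTGG matches with Mvk, which did not pass the threshold. These matches describe letters in the windows and no binding was measured.

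Library composition moved with the sets. Rn45s and Lars2, another gene with a large share of the counts, together held a median of 41.0% of the counts of high-score livers (range 9.09 to 67.8%) and 53.1% of low-score livers (0.34 to 90.3%). The gap was wider in the other tissues of the same mice, at 22.3% against 53.5% in lung and 18.4% against 58.3% in kidney. Total counts were 2237484 to 24241973 in high-score livers and 4125398 to 21159985 in low-score livers, and 3 counts, the smallest number treated as resolved, stood for a median of 0.562 and 0.468 CPM. TMM scaling (trimmed mean of M-values), used for all levels below, gave median factors of 1.11 and 0.96 in these sets. With the score taken on TMM-scaled CPM, 12 of 16 livers kept their place in each set, the high-score livers of CC002, CC006, CC043 and CC053 and the low-score livers of CC016 and CC059 fell in the middle, and the low-score livers of CC033 and CC038 fell among the highest. CC033 and CC038 had 90.3% and 79.0% of their counts in Rn45s and Lars2. CC029, the liver with the lowest score, had 83.7%. On TMM-scaled CPM it scored 5.63, above CC021 at 5.44. The part of composition in the results was not tested, and the main counts are given with and without it.

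**Figure D1:**
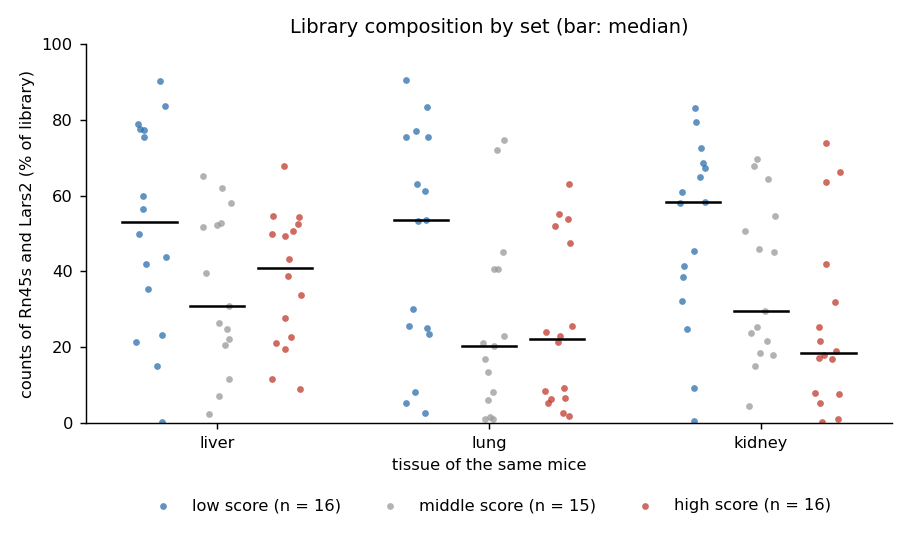
Percent of a library's counts held by Rn45s and Lars2 (y axis) in liver, lung and kidney (x axis), 1 point per library, coloured by the score of the mouse's liver, with a bar at each median. In all 3 tissues the low-score mice had the highest median, 53.1% in liver, 53.5% in lung and 58.3% in kidney, and the points of the sets overlap.

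The liver comparison asks which other genes of the same libraries moved with the score. Of 10182 genes tested, 20 passed an adjusted p of 0.1 (0.196%) in limma-voom with Benjamini-Hochberg adjustment, 14 higher in the high-score livers (0.137%) and 6 lower (0.0589%). Of the 14 higher genes, 8 were sterol synthesis genes, out of 19 listed and tested, and none of the list was lower. All 19 had a positive log2 difference of high-score minus low-score livers, from 0.10 to 1.23, with a median of 0.74, against 0.0047 over all genes tested. In 17 of the 19 genes the medians were in order, highest in the high-score livers, between in the 15 others and lowest in the low-score livers. The score and these genes come from the same libraries and the list is of 1 pathway, so the count describes how far the pathway moved together and is not independent of the rule. With the 12 livers of each set that kept their place on TMM-scaled CPM, 9 genes passed, 6 of them in the list, and with the percent of Rn45s and Lars2 as a covariate, 47 passed, 9 of them in the list. All 19 differences were positive in both. Without TMM factors, 3052 genes passed, 3041 higher and 11 lower, all 19 of the list among the higher, at a median of 0.31 over all genes. In bulk tissue, less RNA per cell and fewer cells of a type cannot be told apart.

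Early steps feed the pathway. Acat2, which condenses acetyl-CoA (NCBIM37, chr17:13135756-13153613, minus strand), was at 31.2 to 84.7 CPM in the high-score livers (median 49.3) and at 16.5 to 46.8 CPM in the low-score livers (median 34.7). It was higher by 0.58 ± 0.12 (SE) on the log2 scale (adjusted p = 0.046), and 10 of 16 high-score livers lay above every low-score liver. Next come the enzymes that turn mevalonate into farnesyl diphosphate. Mvk (SE 0.30, 95% interval 0.39 to 1.61), Pmvk (0.81 ± 0.21), Mvd (1.23 ± 0.43) and Fdps (1.16 ± 0.29) had differences as large as those of the genes that passed, at medians of at most 7.49 CPM in the high-score livers, and their adjusted p-values were 0.30, 0.14, 0.40 and 0.12. Their libraries held few counts, with Mvd at 0 in some livers of both sets.

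Squalene synthesis and closure come next. Fdft1, squalene synthase (chr14:63763990-63796630, minus strand), was at 103 to 257 CPM in the high-score livers (median 168) and at 56.5 to 178 CPM in the low-score livers (median 85.5). The log2 difference was 0.93 ± 0.15 (adjusted p = 0.0014). Lss, which closes squalene epoxide to lanosterol (chr10:75994333-76019883, plus strand), was at 68.9 to 176 CPM (median 125) against 41.4 to 105 CPM (median 65.2). Its difference was 0.88 ± 0.14 (adjusted p = 0.0014), and 11 of 16 high-score livers lay above every low-score liver, the most of any gene in the list. Exons of Fdft1 overlap Ctsb, and those of Lss overlap 4930483K19Rik, on the other strand. Use of strand in the counting is not given in the sources used here, and reads of such pairs could not be told apart without it.

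The removal of the methyl groups of lanosterol involves Cyp51, Msmo1 and Nsdhl. Msmo1, the methyl oxidase (chr8:67196936-67212589, minus strand, annotated as Sc4mol), had the largest difference among genes past the threshold, 1.05 ± 0.16 or 2.07-fold (adjusted p = 0.0014). It was at 161 to 441 CPM in the high-score livers (median 250) and at 59.4 to 255 CPM in the low-score livers (median 130). Cyp51, the demethylase (chr5:4081145-4104746, minus strand), was at 196 to 565 CPM (median 252) against 57.8 to 354 CPM (median 147), a difference of 0.93 ± 0.18 (adjusted p = 0.023). In both genes 11 of 16 low-score livers lay below every high-score liver. Nsdhl, the decarboxylating dehydrogenase (chrX:70163896-70203853, plus strand), was at 64.1 to 223 CPM (median 108) against 39.2 to 101 CPM (median 56.9), a difference of 0.88 ± 0.14 (adjusted p = 0.0016). The partner reductase of this step, Hsd17b7, had a difference of 0.58 ± 0.17 and did not pass (adjusted p = 0.24). The gene listed as 0610007P14Rik, paired with the scaffold protein Erg28 by RefSeq, had 0.28 ± 0.13 (adjusted p = 0.58).

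**Figure D2:**
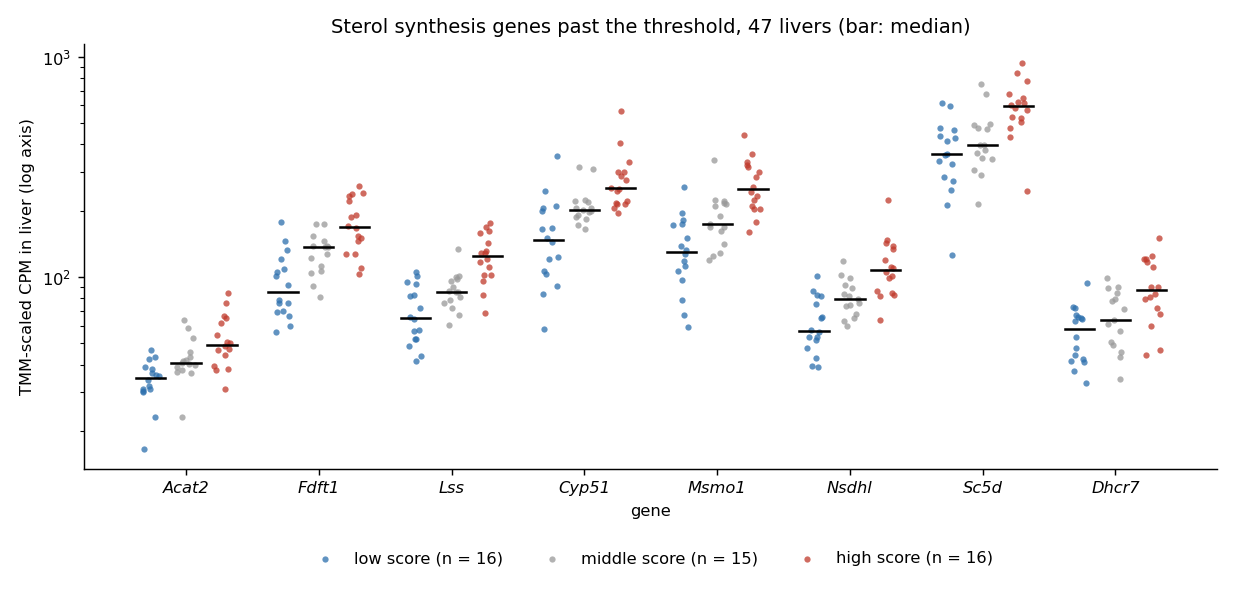
TMM-scaled CPM in liver (y axis, log) of the 8 sterol synthesis genes past the threshold (x axis), 1 point per liver for low-score, middle and high-score mice, with a bar at each median. The median of the high-score livers is the highest of each gene, at 250 CPM for Msmo1 against 130 in the low-score livers, and the sets overlap in every gene.

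Other genes of the list were less even. Sc5d, the lathosterol oxidase, was at 246 to 932 CPM in the high-score livers (median 593) and at 125 to 615 CPM in the low-score livers (median 360), and Dhcr7, which makes cholesterol from 7-dehydrocholesterol, was at 44.1 to 150 CPM (median 87.1) against 33.0 to 93.5 CPM (median 58.3). Their differences of 0.74 ± 0.18 and 0.68 ± 0.16 were just past the threshold, both with an adjusted p of 0.099. The reductase Tm7sf2 (0.46 ± 0.11, adjusted p = 0.12), whose exons overlap 1110014N23Rik on the same strand, the lamin B receptor Lbr (0.12 ± 0.09, adjusted p = 0.74), which has the same reductase activity as Tm7sf2, and the isomerase Ebp (0.10 ± 0.09, adjusted p = 0.80) did not pass. The upper bounds of the 95% intervals were 0.29 for Ebp and 0.30 for Lbr, below the lower bounds of 0.59 for Lss and Nsdhl, 0.63 for Fdft1 and 0.71 for Msmo1. By length-scaled TPM, the genes differed in level, from a median of 467 TPM for Sc5d and 260 TPM for Msmo1 to 1.15 TPM for Mvk in the high-score livers.

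Single livers varied in how many of the 19 genes moved. In the high-score set, 9 to 19 of the 19 genes were above their median over the 47 livers (median 13.5), and in the low-score set 0 to 13 were (median 4). All 19 were above it in CC017 and CC053, and none in CC023 and CC029. The sets overlapped. CC042 and CC006 of the high-score set had 9 and 10 genes above the median, while CC038 and CC033 of the low-score set had 13 and 11. The last 2 are the livers that left the low-score set on TMM-scaled CPM.

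**Figure D3:**
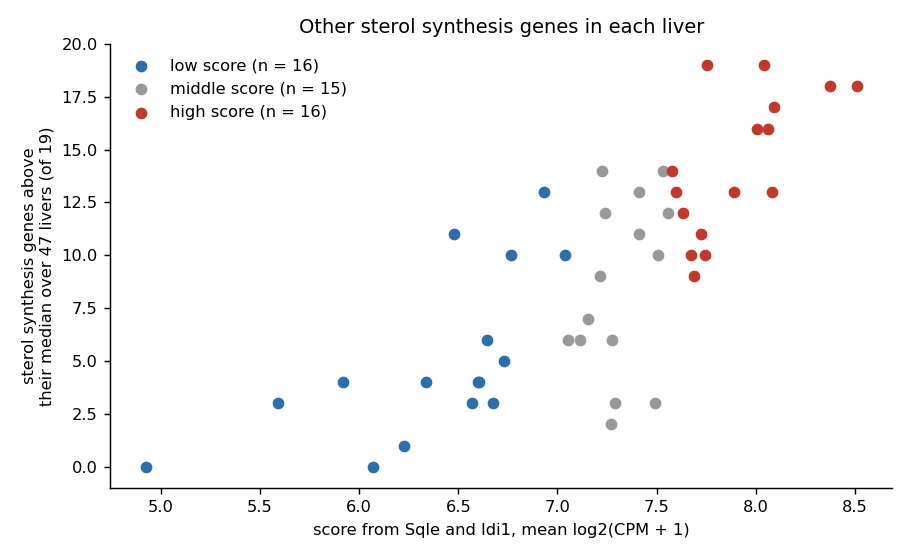
Number of the 19 sterol synthesis genes above their median over all livers (y axis) against the score from Sqle and Idi1 (x axis, mean log2(CPM + 1)), 1 point per liver. High-score livers have 9 to 19 such genes and low-score livers 0 to 13, with none in CC029, the liver with the lowest score, and the points share libraries with the score.

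Genes that control the pathway and take up sterol formed a list of 17, of which 14 were tested, with a median difference of 0.13. Of the 14, 1 passed, higher in the high-score livers, and 13 did not. Srebf2 (0.52 ± 0.14, adjusted p = 0.16) and Insig1 (0.59 ± 0.18, adjusted p = 0.33), named after their values were seen, did not pass. No gene passed among the 8 tested of sterol efflux (median 0.11), the 11 tested of isoprenoid use (median 0.043) or the 22 tested of bile acid synthesis and transport (median 0.026). Cyp7a1, the rate-limiting enzyme of bile acid synthesis, had a difference of -0.62 ± 0.42 (adjusted p = 0.71).

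The other genes that were higher outside the lists include enzymes of neighbouring metabolism. Rdh11, a retinol dehydrogenase, was at 52.9 to 151 CPM in the high-score livers (median 89.5) and at 17.1 to 95.3 CPM in the low-score livers (median 47.3), a difference of 0.94 ± 0.21 (adjusted p = 0.061). Mmab, which adenosylates cobalamin and shares its promoter with Mvk, was at 23.8 to 53.3 CPM (median 33.2) against 12.4 to 37.1 CPM (median 20.5), a difference of 0.66 ± 0.14 (adjusted p = 0.046). In Mmab, 10 of 16 low-score livers lay below every high-score liver. Paqr9, a member of the progestin and adiponectin receptor family, was higher by 0.95 ± 0.22 (adjusted p = 0.099) and the nuclear receptor Nr2f6 by 0.43 ± 0.09 (adjusted p = 0.038). Nr2f6 was at 37.4 to 59.1 CPM (median 50.4) against 29.1 to 52.1 CPM (median 36.4), and its exons overlap Ocel1 on the other strand. Adprh, an ADP-ribosylarginine hydrolase at a median of 6.55 CPM in the high-score livers, was higher by 0.66 ± 0.15 (adjusted p = 0.099). It is named after its value was seen, since its level lay under the 10 CPM asked for naming.

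Lower genes were fewer. Sord, which turns sorbitol into fructose, was at 590 to 1633 CPM in the high-score livers (median 897) and at 882 to 2769 CPM in the low-score livers (median 1448). Its difference was -0.70 ± 0.15 (adjusted p = 0.058). Ankrd12, an ankyrin repeat protein of the nucleus, was at 14.1 to 35.3 CPM (median 20.7) against 20.1 to 43.3 CPM (median 34.6), a difference of -0.57 ± 0.12 (adjusted p = 0.046), and 7 of 16 high-score livers lay below every low-score liver. Lrp4, a member of the LDL receptor family, had -0.55 ± 0.12 (adjusted p = 0.058), and the DnaJ co-chaperone Dnaja2 had -0.25 ± 0.06 (adjusted p = 0.099), which turned to 0.09 without TMM factors. Art4 (-0.78 ± 0.18, adjusted p = 0.099) and Fam120b (-0.45 ± 0.10, adjusted p = 0.083), at medians of 3.66 and 9.57 CPM in the low-score livers, are also named after their values were seen.

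**Figure D4:**
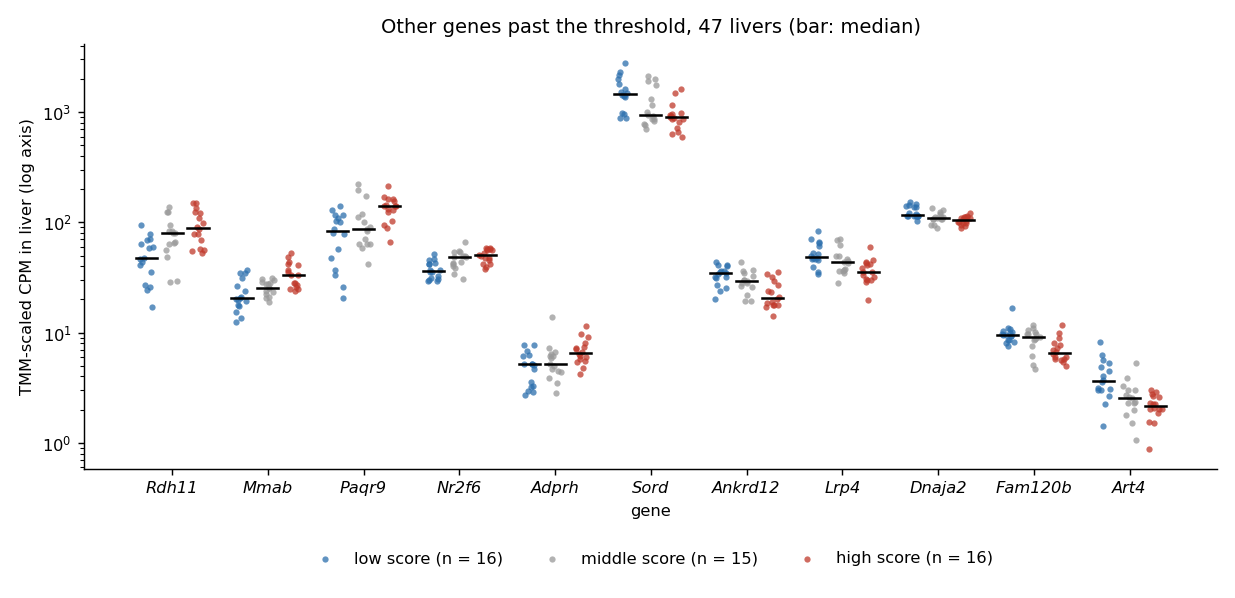
TMM-scaled CPM in liver (y axis, log) of 11 other genes past the threshold (x axis), 1 point per liver for low-score, middle and high-score mice, with a bar at each median. The first 5 genes have their highest median in the high-score livers and the last 6 in the low-score livers, at 1448 CPM for Sord against 897, with overlap in every gene.

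No gene of the other lists passed in liver. Fatty acid synthesis and lipogenesis, which SREBP1 drives, had 19 of 23 tested genes with a positive difference and a median of 0.22. Its genes with the smallest p-values, named after their values were seen, were Gpam, which starts triglyceride synthesis (0.51 ± 0.13, adjusted p = 0.12), and Acss2, an acetyl-CoA synthetase (0.69 ± 0.18, adjusted p = 0.13). Fasn had 0.73 ± 0.25 (adjusted p = 0.39). The medians were -0.07 for the 21 tested genes of fatty acid oxidation and ketogenesis, -0.11 for the 10 of gluconeogenesis and fasting, 0.057 for the 15 acute phase genes, 0.17 for the 15 of unfolded protein and amino acid stress and 0.077 for the 18 of xenobiotic metabolism. Of the 12 tested clock genes, 2 had a positive difference. The 12 had a median of -0.27, which was 0.054 without TMM factors, where the median of all genes was 0.31. Among them Ciart had -1.38 ± 0.42 (adjusted p = 0.30), Per2 -0.46 ± 0.22 (adjusted p = 0.59) and Arntl 0.59 ± 0.52 (adjusted p = 0.80).

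Cell type markers gave no difference past the threshold in liver either, but not all were tested. The fit tested 6 of 6 hepatocyte, 8 of 8 Kupffer cell, 6 of 7 stellate cell and 5 of 7 endothelial markers. It tested 2 of 6 cholangiocyte, 1 of 5 erythroid and 0 of 8 lymphocyte markers, so it could show little for these types. The 6 hepatocyte markers summed to 85993 to 161940 CPM in the high-score livers and to 80260 to 151220 CPM in the low-score livers. The 7 endothelial markers summed to 282 to 504 CPM against 312 to 566 CPM, the 8 Kupffer cell markers to 139 to 668 CPM against 218 to 1182 CPM, and the 7 stellate cell markers to 78.0 to 143 CPM against 67.6 to 361 CPM. The ranges overlapped for each list. All 8 lymphocyte markers and 4 of 6 cholangiocyte markers had medians under 1 CPM in both sets, and 4 of 5 erythroid markers had medians of 0. Lung markers summed to 9.57 to 40.6 CPM against 2.54 to 142 CPM and kidney markers to 1.61 to 99.2 CPM against 9.06 to 535 CPM. The part of these markers in the results was not tested.

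Lung and kidney of the same mice were tested next, since the rule did not use them. In lung, none of 13373 genes passed (0%) in limma-voom, while 1757 had an unadjusted p under 0.05, edgeR called 0 and DESeq2 called 83. In kidney, none of 11898 passed (0%), 1106 had an unadjusted p under 0.05, edgeR called 5 and DESeq2 68. None of the genes called by these tools was of the sterol synthesis list, which had 17 tested genes in each tissue. The median difference of the list was 0.031 in lung and 0.069 in kidney, against 0.015 and 0.0035 over all genes, and 10 and 11 of the 17 were positive. In each tissue, 15 of the 17 genes had an upper 95% bound below 0.50 on the log2 scale. On the same TMM scale, the scoring genes themselves were at medians of 46.0 and 47.6 CPM (Sqle) and 63.4 and 67.9 CPM (Idi1) in the lungs of high-score and low-score mice, and at 76.9 and 91.8 CPM (Sqle) and 153 and 117 CPM (Idi1) in their kidneys.

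Levels of the genes that led in liver overlapped between the sets in lung and kidney. Msmo1 was at 35.6 to 61.2 CPM in the lungs of high-score mice (median 43.9) and at 29.7 to 72.0 CPM in those of low-score mice (median 47.2). Fdft1 was at 32.2 to 56.9 CPM (median 44.7) against 34.8 to 72.4 CPM (median 43.8) in lung and at 21.6 to 59.7 CPM (median 30.7) against 18.2 to 41.9 CPM (median 30.8) in kidney. Lss was at 35.6 to 51.9 CPM (median 39.9) against 29.6 to 47.5 CPM (median 40.9) in kidney, where its difference was 0.067 (95% interval -0.08 to 0.21). Cyp51 differed by -0.18 in lung (95% interval -0.36 to -0.01, adjusted p = 0.35) and by -0.40 in kidney (95% interval -1.15 to 0.36). Its kidney levels ran from 39.9 to 966 CPM among high-score mice, so that the interval there is wide. Outside the pathway, Sord had differences of -0.27 ± 0.09 in lung (adjusted p = 0.25) and -0.42 ± 0.16 in kidney (adjusted p = 0.40), and Ankrd12 had -0.30 ± 0.09 (adjusted p = 0.23) and -0.22 ± 0.08 (adjusted p = 0.39), none past the threshold. The 3 comparisons share the same mice.

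**Figure D5:**
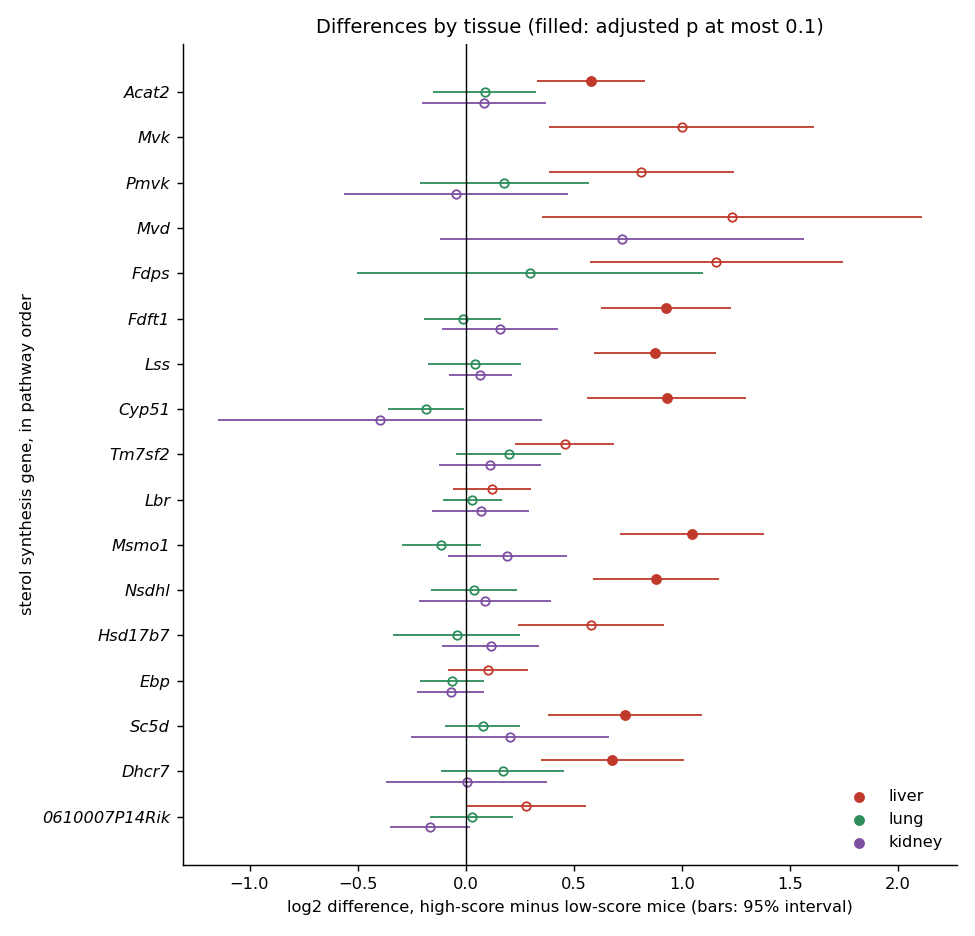
Log2 difference of high-score minus low-score mice (x axis) for 17 of the sterol synthesis genes in pathway order (y axis) in liver, lung and kidney, with 95% intervals and filled points at an adjusted p of at most 0.1. The 8 filled points are all in liver, where all 17 differences shown are positive, and 13 of 15 intervals in each other tissue end below 0.50.

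Whether the liver difference was unlike that of another tissue was tested within mice, with the mouse as a block. Between liver and lung, 6 of 12868 genes passed (0.0466%), 5 of them sterol synthesis genes. The liver difference exceeded that in lung by 1.16 ± 0.19 for Msmo1 (adjusted p = 0.0022), 1.13 ± 0.18 for Cyp51 (adjusted p = 0.0022), 0.93 ± 0.16 for Fdft1 (adjusted p = 0.0036), 0.88 ± 0.17 for Nsdhl (adjusted p = 0.018) and 0.88 ± 0.17 for Lss (adjusted p = 0.027). The sixth gene was Rdh11, by 1.05 ± 0.19 (adjusted p = 0.011). Between liver and kidney, 8 of 11679 genes passed (0.0685%), 4 of them sterol synthesis genes, Fdft1, Lss, Nsdhl and Msmo1. The excess over kidney was 0.79 ± 0.13 for Fdft1 (adjusted p = 0.0021) and 0.82 ± 0.13 for Lss (adjusted p = 0.0021). Without the block, 6 genes passed against lung, 5 of them in the list, but 1 against kidney, which was in the list. Without TMM factors, none passed against either tissue. The liver part of these differences rests on the libraries that gave the score.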

How the data were processed

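Liver, lung and kidney of 1 male mouse from each of 47 Collaborative Cross strains had been sequenced, with 1 RNA-seq library per tissue. The authors filtered 50-base single-end reads, aligned them with STAR 2.5.3a to strain pseudo-genomes of Build37 (mm9), and deposited an expected count from RSEM for each of 24423 genes. The TPM values deposited by the authors scale such counts by transcript length and were used only for levels between genes. Expected counts were rounded, and 25 were not whole within 0.001. Rn45s was left out of library totals. Genes above 1 CPM in 30% or more of the libraries entering a fit were tested with limma-voom (limma 3.58.1, edgeR 4.0.16 for TMM, R 4.3.3), with Benjamini-Hochberg adjustment and a threshold of 0.1 with no minimum fold. The scoring genes were left out before adjustment. A difference is high-score minus low-score on the log2 scale, with its standard error. The study's methods include batch, which is not among the labels and was not modelled.

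Sets came from the score, and pairs of tissues from 1 mouse per strain, which pairs the libraries by design. Deviations from the set means had a median correlation of 0.20 between liver and lung of the same mouse and 0.25 between liver and kidney, so strain was a block in the test between tissues. P-values measure the spread between single mice of different strains. Levels are CPM on library sizes scaled by TMM over the 47 libraries of a tissue. Resolution limits cover counting error only.

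The sets, gene lists and members were chosen with earlier results of these data known. Genes named are the sterol synthesis list, up to 3 genes past the threshold of each other list, and up to 8 genes per direction in liver and 3 in lung and kidney outside the lists, with the largest difference and a mean of at least 10 CPM. Alternatives covered scaling, test, filter, weights, libraries, thresholds and covariates. DESeq2 1.42.0 and edgeR were run as alternatives. Positions are from GENCODE vM1 on NCBIM37 and promoters from RefSeq on GRCm38.p6, which was not joined to the positions. A few genes are not reported here by name, and counts over lists and over all genes include them. The fits were tested on simulated data.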

Additional observations from a re-analysis of the deposited data

Results flagged for a closer look

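The test within mice found genes whose difference between high-score and low-score mice was unlike in 2 tissues. The liver part of each rests on the libraries that gave the score, and without TMM factors none passed against either tissue. The liver difference minus the lung difference was 1.16 for Msmo1, 1.13 for Cyp51, 1.05 for Rdh11, 0.93 for Fdft1, 0.88 for Lss and 0.88 for Nsdhl on the log2 scale. The liver difference minus the kidney difference was 0.86 for Msmo1, 0.82 for Lss, 0.80 for Nsdhl, 0.79 for Fdft1 and 0.62 for Mmab. It was 0.55 for Fam149a, which had 0.37 ± 0.12 in liver (adjusted p = 0.39) and -0.15 ± 0.13 in kidney (adjusted p = 0.75). It was -1.21 for the stress gene Gadd45a, which had -0.46 ± 0.27 in liver (adjusted p = 0.65) and 0.65 ± 0.20 in kidney (adjusted p = 0.28). Fam149a and Gadd45a are named after their values were seen.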

How the results depend on the processing

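All 19 sterol synthesis genes kept a positive liver difference under every alternative run over the liver libraries, while the number past the threshold changed. Without TMM factors, 3052 genes passed in liver, 5426 in lung and 3697 in kidney, with 19, 7 and 7 of the list among them, 0 genes differed between tissues and 0 of the list did, and Dnaja2 turned to 0.0903 in liver; the medians of all genes then were 0.31, 0.35 and 0.27. DESeq2 called 71 liver genes, 83 lung genes and 68 kidney genes, and edgeR called 5 in kidney. With the 15 middle libraries added as their own level, 40 genes passed in liver and 9 in kidney. With the score as a continuous covariate over the 47 mice, 24 genes passed in liver, 22 higher and 2 lower, 13 of them in the list. Only 12 of the 20 liver genes of the main fit were among these 24. In kidney 6 genes passed in this fit. The following 2 settings were chosen after seeing the data. With the mice that kept their set on TMM-scaled CPM, 9 genes passed in liver. With the percent of Rn45s and Lars2 as a covariate, 47 passed in liver and 1 in kidney, and 3 genes, 2 of the list, differed between liver and kidney. At an adjusted p of 0.01, 4 genes passed in liver, 4 of the list, 3 differed between liver and lung, 3 of the list, and 2 between liver and kidney, 2 of the list. With a log2 difference of at least 1, 1 gene passed in liver, and it was of the list. Without the low-count filter, and with sample quality weights, 1 gene passed in kidney, and with Rn45s kept in the totals 4 genes differed between liver and kidney. The replicate block mattered against kidney. With no replicate block, 1 gene differed between liver and kidney, 1 of the list, while 6 and 5 did between liver and lung as with the block. The cause of these changes was not tested.

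Leaving out each mouse in turn gave 10 to 39 genes in liver, with 6 to 11 of the list. It gave 0 to 3 for lung and 0 to 8 for kidney. The liver count was 10 to 13 without CC001, CC002, CC012, CC017, CC021, CC031, CC039, CC043, CC046 or CC053, 32 without CC059 and 39 without CC068. The lung count was 3 without CC028, and the kidney count was 8 without CC029 and 1 to 6 without CC003, CC004, CC006, CC016, CC021, CC027, CC028, CC032, CC039, CC045, CC053 or CC055. Of the called sterol genes, Sc5d lost its call under 5 of 11 alternatives, Dhcr7 under 2 and Acat2 under 1, and the other 5 under none. Paqr9 lost its call under 6, Dnaja2 lost or reversed under 4, Sord and Ankrd12 lost it under 2, and Rdh11, Nr2f6 and Lrp4 under 1. These 11 alternatives leave out the fit on the continuous score, which kept 12 of the 20 liver calls. The low-count genes Mvk, Mvd, Pmvk and Fdps had too few counts for narrow intervals.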
